A study of Mus musculus with 4 samples.

Results

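The lymphocyte-attracting and inflammatory chemokines were followed across the CD45+ hematopoietic cells of the mouse brain and dura mater, after sham procedure and after head injury, as 8 member genes of 19491 genes listed in any of the 4 libraries. The members were taken by name and not by a cut on measured values, though earlier results of these data were known when they were chosen. They are *Ccl3*, *Ccl4* and *Ccl5*, *Cxcl9* and *Cxcl10*, *Cxcl16*, *Xcl1* and *Ccl22*, and each of the 4 libraries listed all 8. Adult C57BL/6J mice, 8 weeks of age, received photothrombotic injury (PTI), in which Rose Bengal is given and light is shone on the head so that vessels clot, or a sham procedure, and tissue was taken at day 3. The groups are brain S3 and dura mater S3 (sham; the labels call these libraries control) and brain D3 and dura mater D3 (PTI; the labels call these injured). Each group is 1 library of CD45+ cells sorted by flow cytometry after enzymatic digestion at 37 °C, and the sources used here do not give the number of mice behind a library. All mice were wild type with no transgene, and endothelial and stromal chemokines lie outside the CD45+ gate.

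Because each condition is 1 library, no difference was tested between conditions and no p-value is given. Ratios carry 95% exact intervals that cover counting error only, and condition, mouse, dissection and library preparation cannot be told apart. After filtering, 3619 cells remained from brain S3 and 4439 from brain D3, and 3438 from dura mater S3 and 2607 from dura mater D3, with a median of 8251 to 14271 transcripts (unique molecular identifiers, UMIs) per cell, higher in both D3 libraries. Cells were placed into classes by clusters and fixed marker genes, and each class name means "like" that cell type. Levels are CPM, the UMIs of a gene per 1000000 UMIs of the class, and a series of 4 values is always in the order brain S3, brain D3, dura mater S3, dura mater D3. The dissociation-linked immediate early genes differed with the library too and are given beside the results they move with.

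Chemokines are small secreted proteins that bind receptors on leukocytes and direct their movement along gradients. CCL3, CCL4 and CCL5 are inflammatory CC chemokines, and CCL3 and CCL5 bind CCR1. CXCL9 and CXCL10 are interferon-induced ligands of CXCR3 on activated T and NK cells. CXCL16 is made as a membrane-bound protein that can be shed and binds CXCR6. XCL1 binds XCR1, which marks cross-presenting conventional dendritic cells (cDC1), and CCL22 binds CCR4 on T cells and is a product of mature dendritic cells. In the brain, microglia and border-associated macrophages are known sources of several of them.

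In the GENCODE annotation of mm10 (GRCm38), *Ccl3* lies on chr11:83647844-83649355, *Ccl4* on chr11:83662584-83664683 and *Ccl5* on chr11:83525778-83530518, so these 3 genes are close neighbours, while *Cxcl16* lies apart from them on chr11:70453983-70459984. *Cxcl9* (chr5:92321347-92328079) and *Cxcl10* (chr5:92346638-92348889) are neighbours on the minus strand. *Xcl1* lies on chr1:164931644-164935527 and *Ccl22* on chr8:94745590-94751699. All 8 are protein-coding. The RefSeq promoter table (GRCm38.p6) held an entry for 5 members, *Ccl3*, *Cxcl9*, *Cxcl10*, *Xcl1* and *Ccl22*, and no entry was matched for *Ccl4*, *Ccl5* and *Cxcl16*.

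The 250 bases before the starts of *Cxcl10* and *Cxcl9* are shown because these 2 ligands of one receptor had different expression patterns in these libraries. Both are printed 5′ to 3′ on the minus strand, *Cxcl10* from chr5:92348890-92349139 and *Cxcl9* from chr5:92328080-92328329, and capitals mark matches to the interferon-stimulated response element core (GAAA, any 2 bases, GAAA), the NF-kappaB consensus or the AP-1 motif TGANTCA, searched on both strands.
Cxcl10: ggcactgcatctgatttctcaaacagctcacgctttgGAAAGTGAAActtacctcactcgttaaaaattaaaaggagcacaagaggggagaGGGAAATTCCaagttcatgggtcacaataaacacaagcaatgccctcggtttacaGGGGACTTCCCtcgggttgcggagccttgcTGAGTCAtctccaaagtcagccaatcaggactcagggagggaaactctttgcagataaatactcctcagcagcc
Cxcl9: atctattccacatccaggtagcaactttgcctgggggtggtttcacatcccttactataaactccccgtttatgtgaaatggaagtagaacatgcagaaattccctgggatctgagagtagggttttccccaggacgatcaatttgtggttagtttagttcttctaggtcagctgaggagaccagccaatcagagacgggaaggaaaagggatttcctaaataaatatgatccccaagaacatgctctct
The *Cxcl10* window held the response element core at 213 to 204 bases upstream, the NF-kappaB consensus at 159 to 150 and, as overlapping matches, at 104 to 94, and TGANTCA at 74 to 68. Among 32851 promoter windows of this length, the response element core was found in 2.98%, the NF-kappaB consensus in 7.25% and TGANTCA in 6.75%. The *Cxcl9* window held none of these letters and has no capitals. A match is a string of letters and is not shown here to be a bound site.

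The 8 genes differed widely in abundance over all kept cells. *Ccl4* was at 2056 CPM in brain S3 and 1597 in brain D3, and 526 in dura mater S3 and 590.3 in dura mater D3. *Ccl3* was at 1071, 949, 244 and 321 CPM, and *Ccl5* at 1144, 315, 302 and 366. These 3 were higher in brain S3 than in dura mater S3, and *Ccl5* alone of the 3 was far lower in brain D3 than in brain S3. *Cxcl16* was at 91.5, 251, 77.8 and 134 CPM, *Cxcl10* at 116, 199, 84.9 and 91.1, and *Xcl1* at 253, 35.3, 28.3 and 21.9. *Ccl22* (13.9, 3.89, 11.9 and 14.5 CPM) and *Cxcl9* (12.9, 6.50, 28.7 and 22.5 CPM) were the scarcest members in the brain libraries. In the dura mater libraries *Ccl22* was the scarcest, and *Xcl1* and *Cxcl9* lay close together. The tags come from the 3′ end of each transcript, so these levels are not scaled by length, and whole-library levels mix the level per cell with the share of each class in the sort.

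**Figure D1:**
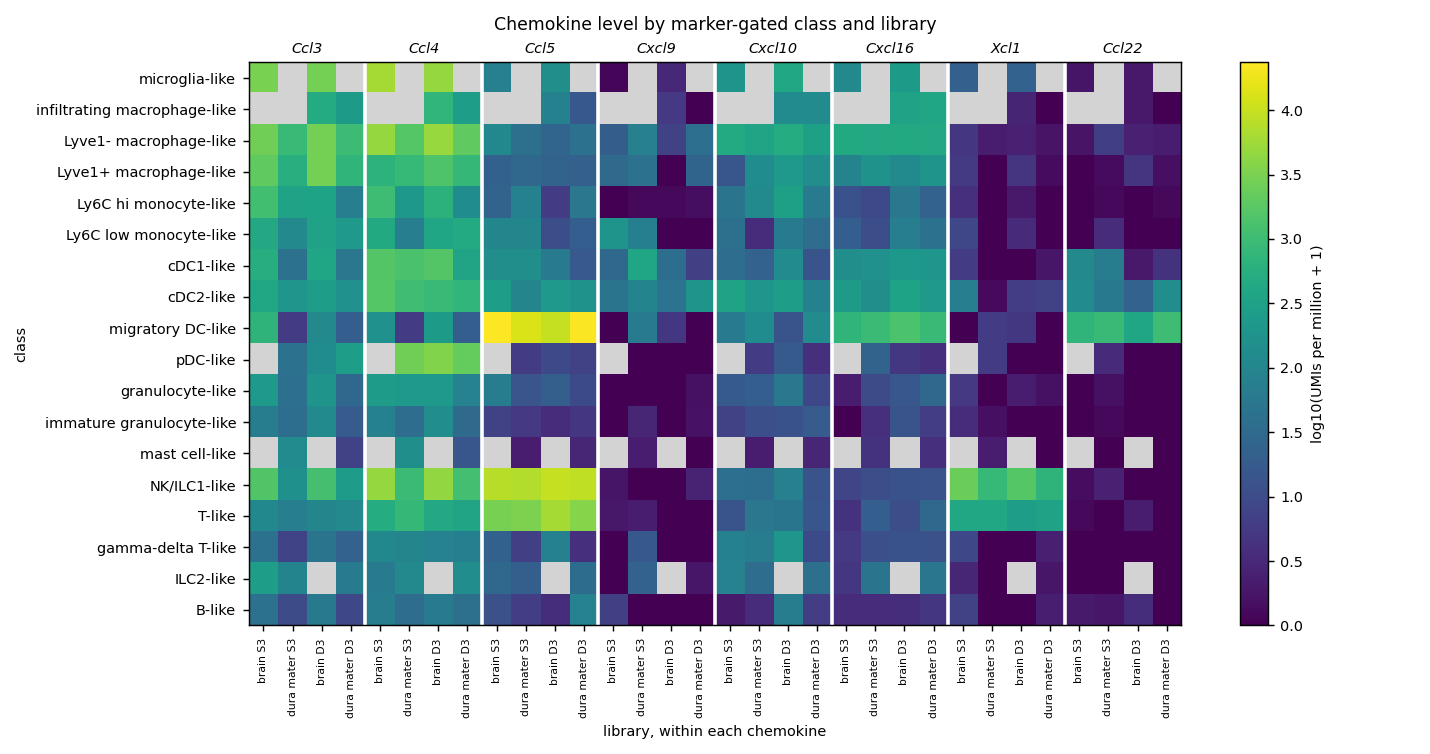
Level of the 8 chemokine genes (each with 4 columns, the libraries in the order on the axis) in each class (rows), as log10 of CPM plus 1. Grey fields had under 20 cells, except that migratory DC-like cells are shown with 8 to 24 cells. *Ccl3* and *Ccl4* are high in microglia-like, macrophage-like and NK/ILC1-like cells, and *Xcl1* and *Ccl5* in NK/ILC1-like cells.

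The composition of the sort changed with injury. Infiltrating macrophage-like cells, with *Arg1*, *Gpnmb* and *Spp1* among their markers, numbered 8 in brain S3 and 1399 in brain D3, against 23 in dura mater D3. T-like cells numbered 586 in brain S3 and 130 in brain D3, and NK/ILC1-like cells 325 and 140. The share of a gene's UMIs held by each class therefore has to be read beside its level in that class. In brain D3 the infiltrating macrophage-like cells held 59.1% of all *Cxcl16* UMIs, 28.5% of *Cxcl10*, 23.0% of *Ccl3* and 20.7% of *Ccl4*. The whole-library ratio of D3 over S3 in brain was -2.84 (log2) for *Xcl1*, -1.86 for *Ccl5*, -1.83 for *Ccl22*, -0.99 for *Cxcl9*, -0.36 for *Ccl4*, -0.17 for *Ccl3*, 0.78 for *Cxcl10* and 1.46 for *Cxcl16*. In dura mater these ratios lay between -0.37 for *Xcl1* and 0.79 for *Cxcl16*.

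**Figure D2:**
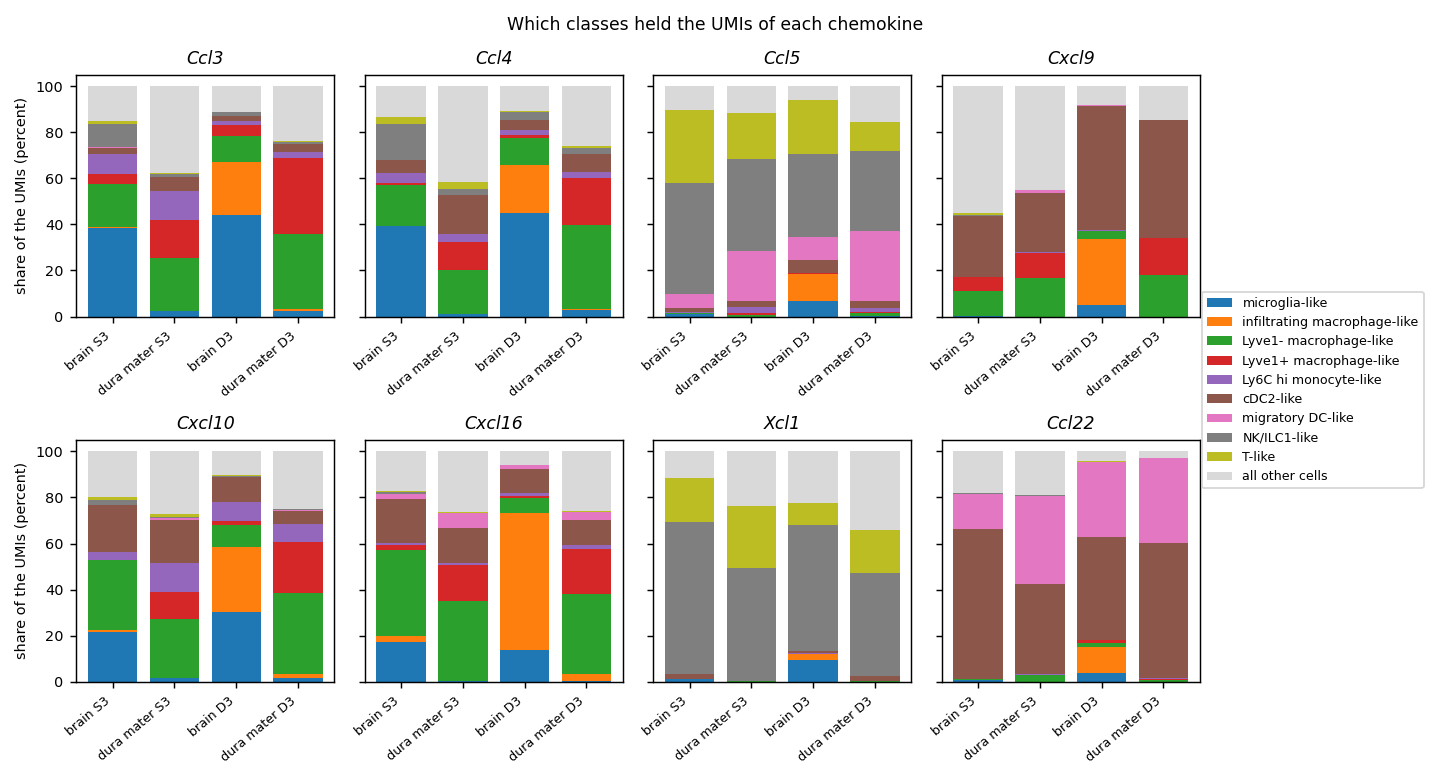
Share (percent) of each gene's UMIs in a library held by each class, as stacked bars from 0 to 100, with the remaining cells in grey. Infiltrating macrophage-like cells hold 59.1% of *Cxcl16* in brain D3, and NK/ILC1-like cells hold 45.0 to 66.0% of *Xcl1* in the 4 libraries.

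Within classes, a gene counted as higher or lower when its CPM differed by at least 2-fold and the counting interval of the log2 ratio left out 0, with at least 50 cells of the class in both libraries and 20 UMIs of the gene in all. In brain, 67 class-by-gene comparisons could be made for D3 over S3. Of these, 16 were higher at D3, where 3.29% of all gene-by-class comparisons were, and 11 were lower, against 3.56%. In the dura mater, 5 of 68 were higher at D3 (background 2.04%) and 15 were lower (2.29%). Between the S3 libraries, 27 of 64 were higher in brain than in dura mater (2.1%) and 8 were lower (4.21%). B-like cells are not a usual source of most of these genes, so their level stands in for free RNA, and a higher group was also asked to exceed the upper end of the B-like interval of its library. That left 10 of 16 and 11 of 11 in brain, 3 of 5 and 15 of 15 in dura mater, and 22 of 27 and 8 of 8 between tissues. *Cxcl10* gave 8 of the 16 higher comparisons in brain, the B-like class itself among them, and 5 of the 15 lower ones in dura mater.

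**Figure D3:**
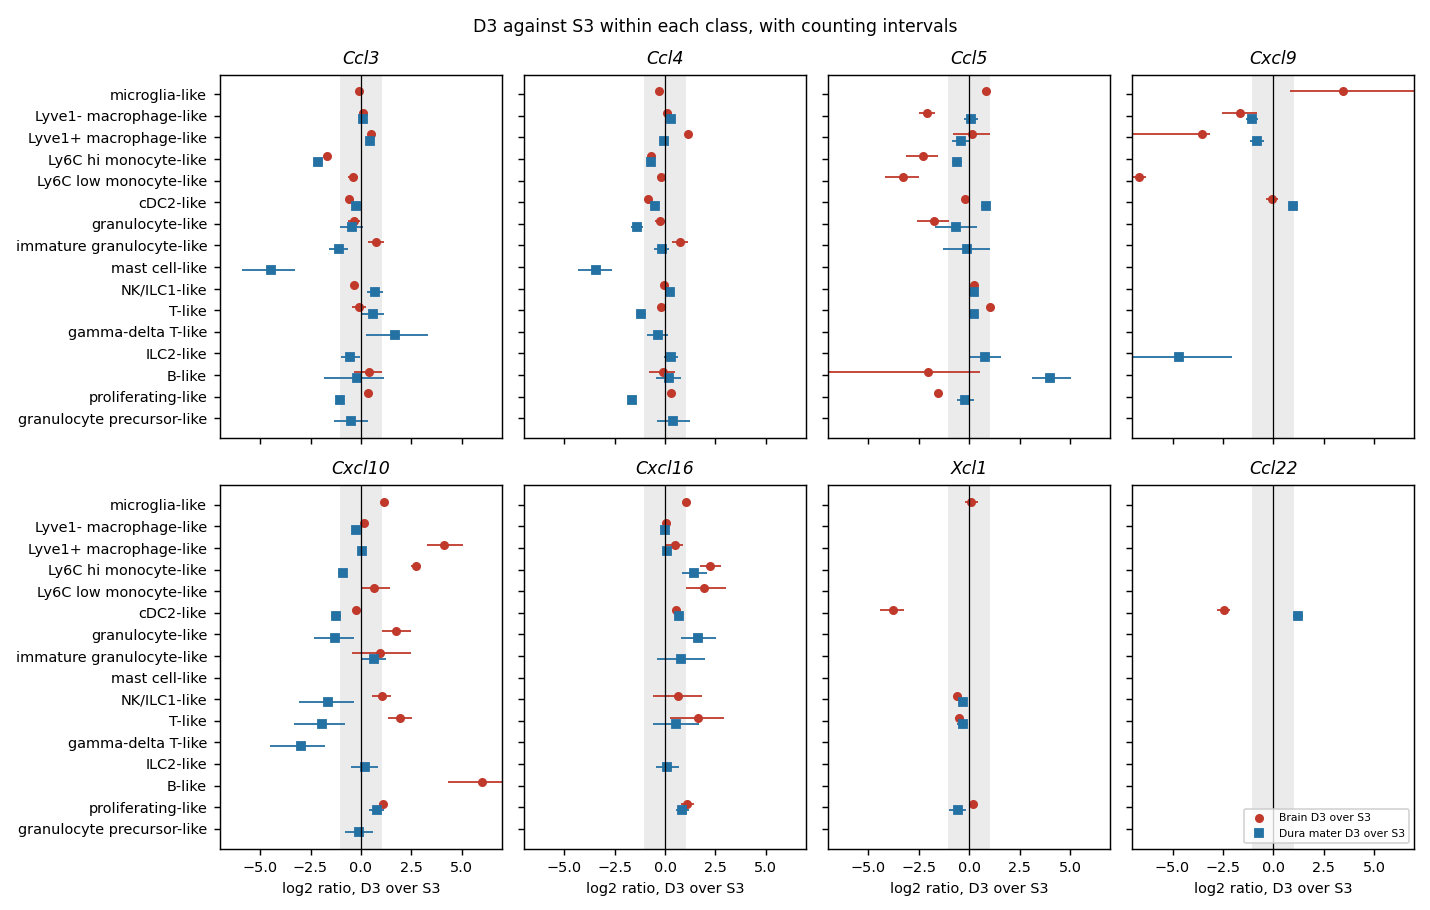
Log2 ratio of D3 over S3 for each gene and class with at least 50 cells in both libraries, brain as red circles and dura mater as blue squares. Bars are 95% counting intervals, cut at the edges of the axis, the grey band is under 2-fold, and *Cxcl9* ratios against 0 UMIs are bounds at 3 UMIs. The *Cxcl10* points of brain lie mostly to the right of the band and no *Cxcl10* point of dura mater does.

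*Ccl3* and *Ccl4*, also known as MIP-1α and MIP-1β, were highest in microglia-like cells in brain S3, while in brain D3 the Lyve1- macrophage-like class was level with them or slightly above. *Ccl3* was at 3046 CPM in microglia-like cells of brain S3 and 2835 in brain D3, a log2 ratio of -0.10, and at least 1 UMI was found in 83.3% and 85.6% of them. *Ccl4* was at 5953 and 4859.9 CPM, a log2 ratio of -0.29, in 87.2% and 87.5% of cells. Neither gene reached the 2-fold limit in these cells, which held 38.5% and 44.2% of the *Ccl3* UMIs of brain S3 and D3. B-like cells of brain S3 had *Ccl3* UMIs in 16.9% of cells at 43.5 CPM. The UMIs were unevenly spread, and the 10% of microglia-like cells with the most *Ccl3* held 51.6% of it in brain S3 and 39.8% in brain D3.

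Among the border macrophages, the Lyve1- macrophage-like class (MHC class II high) had *Ccl3* at 2621 CPM in brain S3 and 2855 in brain D3, and 920.2 in dura mater S3 and 989 in dura mater D3. The Lyve1+ macrophage-like class, whose marker LYVE1 binds hyaluronan, had 1985, 2830.0, 542 and 731 CPM. In both classes tissue separated the libraries far more than injury did. The brain S3 over dura mater S3 ratio was 1.51 (log2, interval 1.44 to 1.58) in Lyve1- and 1.87 (log2, interval 1.78 to 1.97) in Lyve1+ macrophage-like cells. *Ccl4* followed the same order in Lyve1- macrophage-like cells, at 4791, 5038, 1647 and 2023 CPM. In Lyve1+ macrophage-like cells it did not, at 677, 1473, 848 and 825 CPM, and only brain D3 stood out. That D3 over S3 ratio was 1.12 (log2, interval 0.98 to 1.26) in brain, and the share of cells with a UMI after thinning every cell to 2000 UMIs gave a log2 ratio of 0.37, under 2-fold.

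NK/ILC1-like cells carried much *Ccl4*, at 4724 CPM in brain S3 and 4608 in brain D3, and 949 in dura mater S3 and 1139 in dura mater D3. Their *Ccl3* was at 1547, 1198, 153 and 248 CPM. Both genes were higher in the brain libraries than in the dura mater libraries of either day, with a brain S3 over dura mater S3 ratio of 2.32 (log2, interval 2.20 to 2.43) for *Ccl4* and 3.34 (log2, interval 3.05 to 3.63) for *Ccl3*. The *Ccl3* ratio stayed at least 2-fold in each of the 15 alternatives tried. After thinning, the *Ccl4* ratio in shares of cells was 0.65, so most of the *Ccl4* difference lay in UMIs per positive cell. Plasmacytoid dendritic cell-like (pDC-like) cells, few in number, had *Ccl4* at 2607 CPM in dura mater S3 (36 cells), 3434 in brain D3 (21 cells) and 2186 in dura mater D3 (23 cells).

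Ly6C hi monocyte-like cells, the inflammatory blood monocytes, were the 1 class with *Ccl3* past 2-fold in the same direction in both tissues. Its level was 1106 CPM in brain S3, 341 in brain D3, 329 in dura mater S3 and 74.0 in dura mater D3. It was lower at D3 in both tissues, with a ratio of -1.69 (log2, interval -1.79 to -1.60) in brain and -2.15 (log2, interval -2.33 to -1.98) in dura mater, and both remained at least 2-fold lower under all 15 alternatives. *Ccl4* in these cells was at 1034 and 639 CPM in brain and 215 and 135 in dura mater, and neither D3 ratio (-0.69 and -0.68, log2) reached 2-fold. The 14 immediate early genes that tissue digestion raises moved in the same direction in these cells. Their summed level was 19979 CPM in brain S3 against 10371 in brain D3, with 7 of 14 lower (4.37% of all genes were) and 1 higher (4.17%), and 12825 against 9039 in dura mater, with 3 lower (2.01%) and 1 higher (2.02%). Their part in the *Ccl3* difference was not tested.

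*Ccl3* was higher in brain S3 than in dura mater S3 in 10 of the 12 classes compared, and *Ccl4* in 5 of 12. In 8 and 4 of these the brain level lay above the B-like interval. B-like cells themselves had *Ccl3* at 43.5 CPM in brain S3 and 9.15 in dura mater S3, a log2 ratio of 2.25, so the level that free RNA may leave differed between these libraries as well. *Hspa1a*, a heat shock gene of the same dissociation-linked list, was at 1123 CPM in NK/ILC1-like cells of brain S3 and 26.8 in those of dura mater S3, and at 6118 and 529.9 CPM in Lyve1+ macrophage-like cells. The 14 genes of that list together differed far less. They summed to 10816 and 8488 CPM in NK/ILC1-like cells, with 4 higher in brain (2.15% of all genes were) and none lower (2.71%). In Lyve1+ macrophage-like cells the sums were 31283 and 25634 CPM, with 2 higher (2.72%) and 1 lower (5.68%). In the dura mater, *Ccl4* was lower at D3 in T-like (-1.20), granulocyte-like (-1.39), proliferating (-1.64) and mast cell-like cells (-3.43). Several of these rested on few cells, and in thinned shares of cells the T-like ratio was 0.01. The *Ccl3* of dura mater S3 mast cell-like cells was 114 UMIs, 108 of them in 1 cell.

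Infiltrating macrophage-like cells, the largest class of brain D3, were poor in *Ccl3* and *Ccl4* for macrophages. They had 491 CPM of *Ccl3* and 743 of *Ccl4*, where the Lyve1+ and Lyve1- macrophage-like cells of brain S3 together had 2472 and 3826. The ratios were -2.33 (log2, interval -2.37 to -2.30) and -2.36 (log2, interval -2.39 to -2.33). Other classes lay nearer. Lyve1+ macrophage-like cells of dura mater S3 and D3 had 542 and 731 CPM of *Ccl3* and 848 and 825 of *Ccl4*. Those of brain S3 alone had *Ccl4* at 677 CPM, and Ly6C hi monocyte-like cells of brain D3 had 341 of *Ccl3* and 639 of *Ccl4*. Of the 8 members, 5 were lower than in the joined macrophages of brain S3, against 16.2% of all genes, and none was higher, against 7.26%. The other 3 lower members were *Cxcl9* (-2.36), *Cxcl10* (-1.48) and *Xcl1* (-1.13, 59 against 15 UMIs and not above the B-like interval). The *Cxcl10* of infiltrating macrophage-like cells, 128 CPM, lay between the 2 joined classes of brain S3. Lyve1- macrophage-like cells had 461 CPM there and Lyve1+ macrophage-like cells 13.7. *Cxcl16*, *Ccl5* and *Ccl22* were not past the limit, with log2 ratios of -0.11, -0.11 and 0.89. Still, 83.1% of the infiltrating macrophage-like cells had a *Ccl3* UMI, and after thinning the *Ccl3* and *Ccl4* ratios in shares of cells were -0.79 and -0.63. The immediate early genes summed to 10666 CPM in these cells and 26706 in the S3 macrophages. Of the 15 NF-kappaB targets, 4 were lower, among them *Tnf* (75.5 against 327 CPM), beside 16.2% of all genes. The 1 higher was *Tnfaip2* (146 against 16.3 CPM), beside 7.26%.

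A small cluster left unnamed, with *Siglecf*, *Cxcl3* and *Acod1* among its leading genes, was nearly all from brain D3 (137 of its 153 cells). There it had *Ccl3* at 2398 and *Ccl4* at 2421 CPM. Its 10 dura mater S3 cells had 16675 and 17943 CPM, from 776 and 835 UMIs.

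*Ccl5* (RANTES) was high in lymphoid cells and in a few migratory dendritic cell-like cells. In NK/ILC1-like cells it was at 8013 CPM in brain S3 and 9545 in brain D3, and 7494 in dura mater S3 and 8887 in dura mater D3, with UMIs in 90.8 to 97.3% of cells. These 4 levels lay close together, and no ratio between them reached 2-fold. NK/ILC1-like cells held 48.3, 36.0, 40 and 34.4% of all *Ccl5* UMIs, so the lower whole-library *Ccl5* of brain D3 went with fewer NK/ILC1-like and T-like cells among those sorted. B-like cells had *Ccl5* at 11.2, 2.71, 5.23 and 85.5 CPM, the last mostly from 1 cell with 56 UMIs.

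T-like cells had *Ccl5* at 3027 CPM in brain S3, 6164 in brain D3, 3163 in dura mater S3 and 3739 in dura mater D3. Only the brain D3 library was set apart, with a D3 over S3 ratio of 1.03 (log2, interval 0.98 to 1.07). The class joined 2 clusters whose balance changed. The *Ccl5*-rich cluster had 263 cells in brain S3 and 95 in brain D3, and its level went from 6489 to 8118 CPM. The *Ccl5*-poor cluster had 323 and 35 cells at 139 and 416 CPM. Within the richer cluster the log2 ratio was 0.32, so most of the difference over the whole class went with the share of each cluster.

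The highest *Ccl5* level per cell was in migratory dendritic cell-like (migratory DC-like) cells, mature dendritic cells with *Ccr7* on the way to lymph nodes. It was 23466 CPM in 8 cells of brain S3 and 9621 in 24 cells of brain D3, and 13076 in 13 cells of dura mater S3 and 21765 in 14 cells of dura mater D3. These few cells held 6.08, 10.1, 21.9 and 30.5% of the libraries' *Ccl5* UMIs. With so few cells no ratio was formed, and 1 dura mater D3 cell alone had 2545 UMIs.

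*Ccl5* was lower at D3 in 5 of the 11 brain classes compared. The ratios were -3.28 in Ly6C low monocyte-like, -2.31 in Ly6C hi monocyte-like, -2.10 in Lyve1- macrophage-like and -1.75 in granulocyte-like cells, and -1.57 in proliferating cells. The counts were small. Lyve1- macrophage-like cells had 313 *Ccl5* UMIs in brain S3 and 69 in brain D3, and Ly6C hi monocyte-like cells 75 and 19, whose ratio became 1.32 when doublets were kept. An unnamed cluster with macrophage and T cell markers together had *Ccl5* at 909, 354, 489 and 521 CPM and was kept out of these classes. A further count left out macrophage, monocyte and other myeloid cells that had UMIs of 2 or more of 6 T or of 6 NK markers. Over all members together, not *Ccl5* alone, 7 rather than 11 brain comparisons were then lower at D3. In microglia-like cells *Ccl5* was at 80.4 and 142 CPM, and the 10% of cells with the most held 96.1 and 97.7% of it.

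*Cxcl10* (IP-10), an interferon-induced CXCR3 ligand, was the member with the most brain classes past 2-fold. It was higher at D3 in 8 of the 12 brain classes compared, 4 of them above the B-like interval, and lower in none. The B-like class itself was among these 8. Microglia-like cells had 184 CPM in brain S3 and 407 in brain D3, a ratio of 1.15 (log2, interval 1.05 to 1.25), and the share of cells with a UMI was 21.2 and 42.5%, or 10.2 and 20% after thinning. The cells with *Cxcl10* were the deeper ones, with a median of 12735 UMIs against 9359 in brain S3 and 23621.5 against 8140 in brain D3. B-like cells had a *Cxcl10* UMI in 0.605% of cells in brain S3 and 5.33% in brain D3. In brain D3, 23 of the 26 B-like UMIs were in 1 cell. A few cells carried most of the transcript in microglia-like cells too, and the top 10% of cells held 92.5% in brain S3 and 82.7% in brain D3.

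Ly6C hi monocyte-like cells had *Cxcl10* at 46.4 CPM in brain S3 and 305 in brain D3, and at 116 in dura mater S3 and 62.0 in dura mater D3. The brain ratio was 2.71 (log2, interval 2.46 to 2.97), and in the dura mater the lower D3 level missed the limit at -0.91. Thinned shares of cells in brain differed by 0.71, since the top 10% of cells held 96.4% of the UMIs in brain D3. Lyve1+ macrophage-like cells had 13.7 CPM in brain S3, from 12 UMIs, and 235 in brain D3, from 259. Brain S3 stood apart here, since dura mater S3 and D3 had 134 and 140.3 CPM. The D3 over S3 ratio in brain was 4.10 (log2, interval 3.27 to 5.07), and the brain S3 over dura mater S3 ratio was -3.29 (log2, interval -4.26 to -2.47). The latter turned to 0.37 at the coarser clustering resolution of 0.3.

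Lyve1- macrophage-like cells had the most even *Cxcl10*, at 461, 504, 357 and 299 CPM. None of their ratios reached 2-fold. Conventional dendritic cell type 2-like (cDC2-like) cells had 325, 278, 194 and 82.4 CPM, with a dura mater ratio of -1.23 (log2, interval -1.47 to -1.01). *Cxcl10* was lower at D3 in 5 of the 12 dura mater classes and higher in none. The other 4 classes were T-like (-1.94), NK/ILC1-like (-1.61), gamma-delta T-like (-3.00) and granulocyte-like (-1.28), all from few UMIs. T-like cells had 42 UMIs in dura mater S3 and 7 in dura mater D3. With each cell in the class of its own highest marker score, the NK/ILC1-like and granulocyte-like ratios turned to 1.08 and 0.12.

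Type I interferon-stimulated genes moved with *Cxcl10* in some classes and not in others. In microglia-like cells 12 of the 15 listed were higher at D3 and none lower (background 4.61 and 5.45% of genes), with a median log2 ratio of 2.42 where the median over all genes was -0.18. *Rsad2*, which encodes viperin, was at 2.16 CPM in brain S3 and 48.7 in brain D3, and *Ifit1* at 2.56 and 28.4. Of the 20 genes of the interferon-gamma list, 2 were higher in these cells, among them *Gbp2* (2.22). In cDC2-like cells of brain 7 of the 15 interferon-stimulated genes were higher (background 4.68%, median 0.89), while their *Cxcl10* ratio was -0.23. In Ly6C hi monocyte-like cells of brain, 1 was higher and 1 lower of 14 compared (background 4.17 and 4.37%, median -0.30), beside a higher *Cxcl10*. Lyve1+ macrophage-like cells of brain, with the *Cxcl10* ratio of 4.10, had 1 of 13 higher and none lower (background 1.82 and 2.09%, median 0.13). In the dura mater 5 of 14 were lower in Ly6C hi monocyte-like cells (background 2.01%, median -0.74), 5 of 15 in cDC2-like cells (1.65%, -0.62) and 4 of 15 in Lyve1- macrophage-like cells (1.32%, -0.41). Between the S3 libraries, 10 of 14 were lower in Lyve1+ macrophage-like cells of brain than of dura mater (background 5.68%, median -1.34) and 8 of 15 in Lyve1- macrophage-like cells (4.37%, -1.17), whose *Cxcl10* was not lower in brain (461 against 357 CPM).

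The immediate early genes moved the other way from *Cxcl10* in microglia-like cells, with 4 of 14 lower at D3 (background 5.45%) and none higher (4.61%). Their summed level was 32125 CPM in brain S3 and 17331 in brain D3. Of the 15 NF-kappaB targets, *Il1b* was the 1 higher in them (491 and 997 CPM). In Lyve1+ macrophage-like cells of brain 7 of these 15 were higher at D3 (background 1.82%) and none lower.

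*Cxcl9* (MIG), a CXCR3 ligand known for its response to interferon-gamma, was found in 0.774, 0.901, 2.65 and 1.34% of cells. B-like cells had it in 0 to 0.403% of cells. The cDC2-like class held 26.9, 54.1, 25.8 and 51.1% of its UMIs, at 47.9, 45.8, 91.5 and 183 CPM. Single cells decided these levels, and 1 cDC2-like cell had 422 of the 466 UMIs in dura mater D3 and another 227 of 255 in brain D3. The cDC1-like class had 366 CPM in dura mater S3, with 310 of its 350 UMIs in 1 of 39 cells. The microglia-like class was nearly empty of it, with 1 UMI in 430 cells of brain S3 and 23 in 631 cells of brain D3. Lyve1- macrophage-like cells had 18.5, 5.92, 79.0 and 38.4 CPM, the brain libraries below the dura mater ones, with a ratio of -2.09 (log2, interval -2.56 to -1.65) between the S3 libraries, or 0.33 when cells were placed by their own marker score. Leaving out the 5 cells with the most UMIs turned the brain D3 over S3 ratio of this class from -1.65 to 0.08. In brain D3, microglia-like cells thus held 30.2% of *Cxcl10* and 4.88% of *Cxcl9* UMIs. In dura mater S3, 57.1% of the 21 *Cxcl9*-positive cDC2-like cells also had *Cxcl10*, against 15.7% of the others.

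*Cxcl16* varied little across the libraries in Lyve1- macrophages. Lyve1- macrophage-like cells had 443 CPM in brain S3 and 457 in brain D3, and 440.0 in dura mater S3 and 435 in dura mater D3, with UMIs in 92.3 to 94.8% of cells. The 4 levels lay close together, while B-like cells had *Cxcl16* in 1.33 to 2.40% of cells. Infiltrating macrophage-like cells of brain D3 had 334 CPM, in 94.9% of cells. The transcript was less bunched there than that of the other members, since the top 10% of these cells held 26.7% of it. Migratory DC-like cells had 737, 1339.8, 967 and 911 CPM.

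The higher whole-library *Cxcl16* of brain D3 came with more infiltrating macrophage-like cells and with higher levels in 5 of the 9 brain classes compared, 4 above the B-like interval. Microglia-like cells had 117 and 237 CPM in brain S3 and D3, a ratio of 1.03 (log2, interval 0.90 to 1.16). Ly6C hi monocyte-like cells had 11.8 and 56.3 CPM in brain and 8.31 and 22.6 in dura mater. They were higher at D3 in both tissues, with ratios of 2.25 (log2, interval 1.74 to 2.79) and 1.44 (log2, interval 0.86 to 2.06), while their *Ccl3* was lower in both. Ly6C low monocyte-like cells of brain had 19.0 and 73.1 CPM, a ratio of 1.94 (log2, interval 1.02 to 3.04) that stayed at least 2-fold in all 12 alternatives that gave a value. No class of either tissue was lower at D3. The sheddase genes *Adam10* and *Adam17*, whose enzymes release CXCL16 from the membrane, did not pass the 2-fold limit in any brain class compared between D3 and S3.

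*Xcl1* (lymphotactin) was found mostly in lymphoid cells. NK/ILC1-like cells had 2427 CPM in brain S3 and 1621 in brain D3, and 855 in dura mater S3 and 695 in dura mater D3, with UMIs in 85.2, 80.7, 83.9 and 65.8% of cells. The brain libraries were above the dura mater ones on both days. The ratio between the S3 libraries was 1.504 (log2, interval 1.38 to 1.63), but the thinned share of cells differed by 0.25 (log2), so the difference lay in UMIs per positive cell. T-like cells had 403, 281, 409 and 325 CPM, and gamma-delta T-like cells 0 to 7.73. NK/ILC1-like and T-like cells together made up most *Xcl1* UMIs of each library, 66.0 and 19.0% in brain S3 and 54.5 and 9.59% in brain D3. The cDC2-like class of brain S3 had 196 *Xcl1* UMIs in 10.2% of its cells, and brain D3 had 29 in 1.21%. Microglia-like cells had 108 *Xcl1* UMIs in brain S3 and 246 in brain D3, where T-like cells had 245. In brain D3, 20.2% of microglia-like cells with *Ccl5* had *Xcl1*, against 2.26% of those without. The cells with *Ccl5* were far deeper, with a median of 27390 UMIs against 9265.5. Of the 631 microglia-like cells of brain D3, 52 had UMIs of 2 or more T markers and 21 of 2 or more NK markers. The part of depth and of mixed cells was not tested.

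*Ccl22* (MDC), the CCR4 ligand, was found mostly in dendritic cells. Migratory DC-like cells had 719, 385, 906 and 1030.5 CPM, from 80, 92, 191 and 215 UMIs. cDC2-like cells had 125 CPM in brain S3 and 22.6 in brain D3, and 57.7 in dura mater S3 and 135 in dura mater D3, so brain D3 was the lowest of the 4 in both classes. The cDC2-like ratio of D3 over S3 was -2.46 (log2, interval -2.77 to -2.17) in brain and 1.23 (log2, interval 0.97 to 1.49) in dura mater. The brain ratio held at least 2-fold under all 15 alternatives, and the dura mater ratio under 8 of 15. Without the 5 cells richest in *Ccl22* the dura mater ratio was 0.44, since 1 dura mater D3 cell had 158 of 345 UMIs. *Ccl17*, the other CCR4 ligand, was also lower in cDC2-like cells of brain D3, at 35.2 CPM against 377 in brain S3. B-like cells had 0 to 3 *Ccl22* UMIs per library.

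The receptors of these ligands fell on different classes. *Ccr1* was highest in granulocyte-like cells, at 997, 779.5, 757 and 554 CPM. In Ly6C hi monocyte-like cells of brain it was higher at D3, with a log2 ratio of 1.59. Its B-like levels were 3.49 to 21.7 CPM.

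*Cxcr3*, the receptor of CXCL9 and CXCL10, was in T-like cells at 83.6, 172, 119 and 179.7 CPM, and in brain it was higher at D3 (1.04, log2). *Ifng* in the same cells was also higher, at 239 CPM in brain S3 and 502 in brain D3. Both ratios are over the 2 joined T-like clusters, and within the *Ccl5*-rich cluster they were 0.38 for *Cxcr3* and 0.37 for *Ifng* (log2), under 2-fold. The other cluster had 4 to 23 UMIs of either gene per library. *Cxcr6*, the receptor of CXCL16, was highest in gamma-delta T-like cells, at 1314, 1222, 1089 and 1119 CPM. *Xcr1* was at 12.1 CPM or less outside cDC1-like cells, which had 196, 193, 269 and 323 CPM, while *Ccr4* reached at most 12.8 CPM, in T-like cells of dura mater S3, among classes with 20 or more cells. *Ccrl2*, which binds chemerin and has been described as an atypical chemokine receptor, was at 2861 CPM in the unnamed *Siglecf* cluster of brain D3 and at 690.2 in infiltrating macrophage-like cells.

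**Figure D4:**
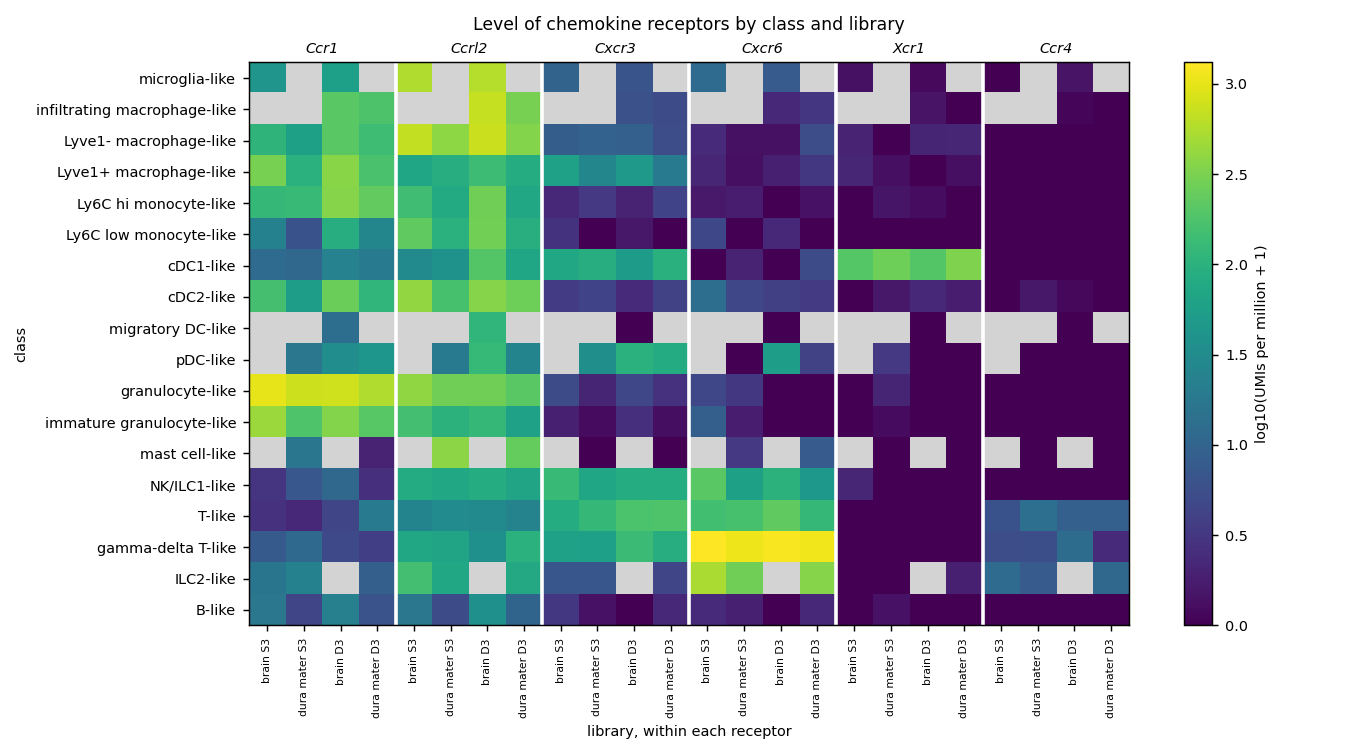
Level of receptors of these chemokines in each class (rows) and library (columns within each receptor), as log10 of CPM plus 1, with fields under 20 cells in grey. *Xcr1* stands in cDC1-like cells, *Cxcr6* in gamma-delta T-like cells and *Ccr1* in granulocyte-like cells.

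Levels were correlated across 57 groups, each a named class in 1 library with at least 50 cells, without the unnamed clusters. The gene most like *Ccl3* among 10736 was *Ccl4*, with Pearson r = 0.90 of log levels, followed by *Atf3* (0.81) and *Mef2a* (0.80). *Ccl5* was closest to *Klrd1* (0.89) and *Klre1* (0.89) and *Xcl1* to *Klre1* (0.95) and *Klrb1c* (0.95), which encode NK cell receptors. *Cxcl16* was closest to *Axl* (0.94), a receptor for apoptotic cell debris, and *Cxcl10* to *F11r* (0.79), *Cxcl16* (0.78) and *Axl* (0.78). *Ccl22* was closest to *Ccl17* (0.84), and *Cxcl9* had the weakest leading value, *Mgl2* at 0.72. These groups share libraries and depth, and the values are descriptions.

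*Ccl3* and *Ccl4* were also compared within cells. *Ccl4* was found in a larger share of cells with *Ccl3* than of cells without it in 41 of 43 groups, a class or unnamed cluster in 1 library with at least 20 cells of each kind. Among microglia-like cells of brain S3, 91.3% of the 358 cells with *Ccl3* had *Ccl4*, against 66.7% of the 72 without. In brain D3 the shares were 92.8% of 540 and 56.0% of 91. Cells with *Ccl3* had a median of 10094.5 UMIs in brain S3 and those without 8177, and in brain D3 13396 and 6414, so the cells with *Ccl3* were the deeper ones, and the part of depth was not tested. In Ly6C hi monocyte-like cells of brain D3 the shares were close, at 66.5 and 64.8%. B-like cells of brain S3 showed no such tie, with *Ccl4* in 29.8% of cells with *Ccl3* and 30.1% of those without.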

How the data were processed

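CD45+ cells of the brain and dura mater were profiled with 10x Chromium 3′ v3 chemistry. Per the submitters' processing notes and the study's methods, reads were aligned to mm10 with Cell Ranger 3.1.0 and handled with Seurat 3.1.0. The authors deposited log-normalised values (natural log), that is ln(1 + 10000 × UMIs of the gene / UMIs of the cell). UMI counts had been assumed when the tests were planned; they were recovered from the deposited values, all whole within a tolerance of 1e-05.

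Of 18969 barcodes, 14586 passed the filter (over 1000 and under 6000 genes, no more than 7% mitochondrial UMIs). Scrublet's own threshold marked at most 0.0634% of a library's cells and was not used; the highest-scoring 0.8% per 1000 cells were removed as doublets, leaving 14103. Barcodes shared between a pair of libraries numbered 3 to 11. Clusters were found with Seurat 5.3.0 (R 4.3.3) from 2500 variable genes, 30 principal components and resolution 0.6, leaving out the members and all listed genes. A cluster took a class name from fixed markers, and a named cluster with a second lineage's markers (mean log2 fold over 0.5, at least 5 markers in 10% of cells) was left unnamed, a rule set after seeing the data. UMIs were summed per class and library (Python 3.11.15, scanpy 1.11.5, scipy 1.17.1), with 95% exact conditional binomial intervals and a floor of 3 UMIs for zeros. UMIs of one cell are not independent of each other, so these intervals are too narrow for a difference between conditions.

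The study's methods tested cells with MAST; with 1 library per condition no test was run here. Members and gene lists were chosen with earlier results of these data known. Genes named beside the members are, of each listed set, among the 4 with the largest ratios in a class and 50 or more UMIs, plus genes most like a member over all groups and, as values only, listed receptors. Some listed genes and a motif are not reported here. Scripts were tested on simulated data. Processing alternatives numbered 13, and 2 more on mixed-lineage cells were added after seeing the data.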

Additional observations from a re-analysis of the deposited data

Results flagged for a closer look

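In 4 class-by-gene pairs the D3 over S3 ratio was past 2-fold in opposite directions in brain and dura mater. Each rests on 1 library per condition, and the difference between the tissues was not tested. The share of all genes with such opposite ratios was not computed, so the count of 4 has no background beside it. *Ccl22* in cDC2-like cells had a log2 ratio of -2.46 in brain and 1.23 in dura mater, a difference of -3.7. *Cxcl10* accounted for the other 3 pairs, higher at D3 in brain and lower in dura mater each time. Its log2 ratios were 1.95 and -1.94 in T-like cells (a difference of 3.89), 1.76 and -1.28 in granulocyte-like cells (3.04), and 1.03 and -1.61 in NK/ILC1-like cells (2.64). In brain D3 none of these 3 *Cxcl10* levels lay above the interval of B-like cells, whose own *Cxcl10* there was 26 UMIs, 23 of them in 1 cell.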

How the results depend on the processing

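No paired analysis was possible because each condition is 1 library. Of the count results, those not named here stayed within 1.5 times their value under all 15 alternatives. Counting the share of cells with a UMI after thinning gave 8 rather than 16 comparisons higher at D3 in brain, 8 rather than 15 lower in dura mater, 16 rather than 27 higher in brain S3 than in dura mater S3, and 3 rather than 5 members lower in infiltrating macrophage-like cells. With no filter on cells 17 rather than 11 were lower at D3 in brain and 11 rather than 5 higher in dura mater. A minimum of 100 UMIs gave 6 lower in brain, 2 higher in dura mater and 4 rather than 8 lower in brain S3 than in dura mater S3. With each cell in the class of its own highest marker score, 16 were higher at D3 in dura mater and 15 lower in brain S3 than in dura mater S3. Higher comparisons in dura mater were 10 with doublets kept and 9 with a mean over cells of each cell's CPM. Lower ones in brain were 7 with 2500 cells drawn per library and 7 without myeloid cells with T or NK markers. Clustering resolution 0.3 gave 3 members lower in infiltrating macrophage-like cells. The causes were not tested.

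Of the 87 called ratios, 18 turned direction under at least 1 alternative. At D3 in brain, 5 of 11 lower and 3 of 16 higher ratios kept 2-fold under all alternatives that gave a value, as did 4 of 15 lower and 0 of 5 higher in dura mater. *Ccl5* turned most often. In Ly6C hi monocyte-like cells its log2 ratio became 0.76 with no filter, 1.32 with doublets kept and 3.46 by marker score for D3 over S3 in brain. Between the S3 libraries it became 2.20 with no filter, 2.89 without the 5 richest cells, 0.59 in thinned shares and 1.86 without cells with T or NK markers. In cDC2-like cells between the S3 libraries it became -0.0733 with no filter and -0.30 by marker score. In B-like cells it became -0.98 with no filter and -0.25 by marker score between the S3 libraries, and -1.23 with no filter for dura mater. *Cxcl10* turned in dura mater by marker score in NK/ILC1-like (1.08) and granulocyte-like cells (0.12). Between the S3 libraries it turned in Lyve1+ macrophage-like cells at resolution 0.3 (0.37), in Ly6C hi monocyte-like cells in thinned shares (0.12) and in ILC2-like cells with no filter (-1.10) and without the 5 richest cells (-0.57). *Cxcl9* turned in Lyve1- macrophage-like cells, to 0.0790 in brain without the 5 richest cells, 0.13 in dura mater with all variable genes clustered and 0.33 between the S3 libraries by marker score. *Ccl3* turned by marker score in ILC2-like cells between the S3 libraries (-0.57), in gamma-delta T-like cells of dura mater (-0.19) and in immature granulocyte-like cells of dura mater (0.43, and 0.69 with no filter). *Ccl4* in T-like cells of dura mater became 0.0132 in thinned shares, and *Cxcl16* in T-like cells of brain -0.52 without the 5 richest cells. The causes were not tested.

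Depth limits the scarce genes most. *Cxcl9* and *Ccl22* totalled 471 to 1195 and 282 to 587 UMIs per library, and no level with under 20 UMIs in all was compared.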

Other observations

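Most other chemokines that attract lymphocytes or dendritic cells had few UMIs, and 0 to 5 of the 13 listed had enough in the classes described. Their summed level was not low in every class. It was 216 CPM in ILC2-like cells of brain S3 and 398 in those of dura mater S3. In cDC2-like cells it was 396 and 289 CPM. *Cxcl14* was higher in infiltrating macrophage-like cells of brain D3 (101 CPM) than in the Lyve1+ and Lyve1- macrophage-like cells of brain S3 (39.1 CPM), and higher in microglia-like cells at D3 (19.3 against 4.33 CPM). *Ccl1*, a CCR8 ligand, was at 58.7 CPM in NK/ILC1-like cells of brain S3 and 29.1 in brain D3, against 2.98 in dura mater S3.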
